A study of Rattus norvegicus with 38 samples.

Results

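Liver RNA of 13 untreated male F344 rats of 18 months was compared with that of 5 untreated male F344 rats of 12 months kept in the rooms of the 1,2-dibromo-2,4-dicyanobutane study. The 18 rats were taken from the 38 of the whole series by their labels alone, with no measured value used. The older rats, about 84 weeks old, came from the rooms of 3 studies: beta-myrcene (5 rats), 5-hydroxymethyl-2-furfural (5) and isoeugenol (3). The younger rats were about 58 weeks old. All of them were sentinels, animals housed in a study room to watch the health of the colony, and none received the chemical that names its study. RNA came from the left lobe of the liver of each rat. Each rat was labelled with Cy5 and set on a 2-colour Agilent rat oligonucleotide array against 1 Cy3-labelled pool made from 63 sentinels, of which 25 had the youngest age and 13 the oldest. F344 is an inbred strain, so the rats of a group were nearly alike in genotype, and the labels give no other allele or agent for any group.

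The comparison answers how the liver differed between the middle and the oldest age of the series, with a limit that touches every value below. The 12-month group is 1 study, so its age and its study cannot be told apart. A further 5 sentinels of 12 months, of the bis_2-chloroethoyl_methane study, were measured on the same design and are called the other 12-month study. Their calls are given beside those of many gene lists, and their mean, or the difference from them, beside many of the genes described.

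In male rats the liver expresses a set of cytochrome P450s, sulfotransferases and transporters that the pulsed release of growth hormone, acting through the transcription factor STAT5b, keeps at male levels. Several of these genes are known to lose their male level in old rats. The liver also makes most plasma proteins, breaks down amino acids and synthesizes bile acids and cholesterol, and it adjusts chaperone genes to the load of unfolded protein. Genes of these groups are described in turn.

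Each deposited value was a score: the log ratio of rat over pool, scaled so that each array had a mean near 0 and an SD near 1 over its 20277 probes. A score of 1 is therefore 1 SD of that array above the array's mean. A ratio to a pool gives no absolute level, so the labelled tissue could not be checked by the level of liver markers, and levels were not compared between genes. Of the 5 hepatocyte markers looked up, 4 were measured and none of those passed the test described next. The even spacing of the scores let the log ratios be recovered, with base 2 assumed because no base is stated, and sizes on that recovered log2 scale are open to this choice. On it, the array SD behind a score unit was 0.213 to 0.307 in the 12-month rats and 0.247 to 0.42 in the 18-month rats. The 12-month rats correlated with their own study at a mean r of 0.483 to 0.629. Among the 18-month rats, 5-hydroxymethyl-2-furfural rat 2 stood apart with a mean r of 0.133 to the others, followed by beta-myrcene rat 4 at 0.216, and the highest mean r was 0.588. The count of called probes was 4991 without the first of these rats and 6121 without the second.

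Between the groups, 5334 of 20277 probes passed (limma, two-sided, Benjamini-Hochberg adjusted p under 0.05, study as a random block), which is 26.3%. Of these, 2650 were higher at 18 months and 2684 were lower. With 1 probe standing for each gene, 2770 of 9650 genes passed (28.7%), 1172 of them higher (12.1%) and 1598 lower (16.6%). The median difference over all genes was -0.0152 score units. All 13 older rats lay outside the range of the 5 younger rats in 659 genes (6.83%), above it in 219 (2.27%) and below it in 440 (4.56%).

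Studies of the same age were also compared with each other, and whether ages differ in this was not tested. Among the 3 studies of 18 months, limma's F test called 0 of 20277 probes, with 1445 at an unadjusted p under 0.05, and the correlation of rats within a study was -0.0079. The 2 studies of 12 months differed in 8899 probes (43.9%) and in 4327 genes (44.8%), 2235 of them higher (23.2%) and 2092 lower (21.7%) in the 1,2-dibromo-2,4-dicyanobutane rats, and the within-study correlation of the 12-month rats alone was 0.406. The block in the main test was estimated from the 18 arrays, at -0.00781, and so does not hold the spread between 12-month studies. A second test, added after the data were seen, took the correlation from all 23 arrays of 12 and 18 months with age as the factor (0.259) and is called the wider test below. It called 662 probes (3.26%) and 411 of 9650 genes (4.26%), 86 higher (0.891%) and 325 lower (3.37%). With the correlation from all 38 arrays (0.425), limma called 0 probes, with 2022 at an unadjusted p under 0.05.

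Genes kept at male levels had the largest median difference of the 35 gene lists described. Of 14 measured genes of the male-biased list, 0 passed as higher and 10 as lower at 18 months, against 16.6% lower over all genes. The list's median difference was -3.83 score units. The mean score over the 14 genes ran from -0.474 to 0.628 in the 5 younger rats and from -6.70 to -1.04 in the 13 older rats, so that every older rat lay below every younger one. By study, that mean was -4.07 in the beta-myrcene rats, -2.70 in the 5-hydroxymethyl-2-furfural rats and -5.49 in the isoeugenol rats. It was -1.65 in the bis_2-chloroethoyl_methane rats, between the means of the 1,2-dibromo-2,4-dicyanobutane rats (0.0395) and the older rats (-3.87). That value lay within the range of the older rats. The wider test kept 3 of the 10 genes.

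Cyp3a2, a steroid and drug hydroxylase of the male rat liver, scored -1.6, -1.57, 0.074, 0.788 and 1.97 in the 12-month rats. In the 18-month rats its score was -21.8 at the lowest, -13.1 at the median and -1.69 at the highest. The groups did not overlap, but by a narrow margin, since 5 of the older rats lay near the younger ones and the rest far below. The difference was -10.9 score units (SE 3.41, adjusted p = 0.0253), or -3.34 on the recovered log2 scale, and the wider test gave adjusted p = 0.224. Cyp3a2 also lost its call without replicate 1 (adjusted p = 0.0642) or replicate 2 (adjusted p = 0.055) of the 12-month rats.

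Sult1e1, which sulfates and so inactivates estrogens, scored -1.24, -1.2, 0.717, 1 and 1.41 in the younger rats. Among the older rats the score was -19.2 at the lowest, -10.9 at the median and -2.48 at the highest. No older rat reached a younger one. Sult1e1 fell by 10.7 score units (SE 2.62, adjusted p = 0.006), a recovered log2 difference of -3.34, and the wider test gave adjusted p = 0.105. The highest of the 3 isoeugenol rats scored -13.3, which was lower than the lowest rat of the 5-hydroxymethyl-2-furfural study at -10.9.

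Stac3, known for coupling excitation to contraction in muscle, was the gene of this list with the largest difference that also passed the wider test. The 12-month scores were -1.65, -1.34, -0.957, 0.46 and 0.642. Across the 18-month rats the score was -13.9 at the lowest, -7.87 at the median and -3.56 at the highest. Again the groups were apart, with -7.51 score units between their means (SE 1.28, adjusted p = 0.00042 and, in the wider test, 0.0306).

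Other P450s of the list moved the same way. Cyp4a8, a fatty acid hydroxylase, scored -2.24, -1.62, -1.39, 0.307 and 1.58 in the younger and -11.7 at the lowest, -7.95 at the median and -1.33 at the highest in the older rats, and 12 of 13 older rats lay below the range. Its difference was -6.23 (SE 1.47, adjusted p = 0.00464). Cyp2c11, the main male-specific P450 of the rat liver, scored -0.695, -0.554, 0.6, 0.601 and 1.57 against -8.23 at the lowest, -3.81 at the median and -0.516 at the highest. Here 1 older rat fell within the younger range, and the difference was -4.23 (SE 0.93, adjusted p = 0.00289). Cyp3a18 fell by 4.59 (SE 1.15, adjusted p = 0.00694) and Cyp2a2 fell by 2.22 (SE 0.355, adjusted p = 0.000259), neither with overlap between the groups. Probes of one P450 subfamily can bind each other's transcripts, so the share of each gene in these differences is uncertain.

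Hsd3b5, a male-specific steroid reductase of the 3-beta-hydroxysteroid dehydrogenase family, scored -0.065, 0.174, 1.45, 1.88 and 2.49 in the 12-month rats and -7.3 at the lowest, -3.54 at the median and -1.26 at the highest in the 18-month rats. Its difference of -4.81 (SE 0.873, adjusted p = 0.000714) came without overlap. The organic anion transporter gene Slc22a8 fell by 3.44 (SE 0.685, adjusted p = 0.00139), and the aldo-keto reductase gene Akr1c14 fell by 1.63 (SE 0.256, adjusted p = 0.000234). The 4 genes that did not pass had differences from -0.088 to 0.978.

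Against the other 12-month study, 3 of the 14 male-biased genes were higher and 1 lower in the 1,2-dibromo-2,4-dicyanobutane rats (23.2% and 21.7% over all genes). The 3 were Hsd3b5 (adjusted p = 0.00873), Cyp2a2 (adjusted p = 0.00331) and Akr1c14 (adjusted p = 3.61e-07). For the genes with the largest differences, this test did not pass: adjusted p was 0.523 for Cyp3a2, 0.247 for Sult1e1 and 0.0603 for Stac3. Its spread includes that of the 18-month rats, with SDs of 8.05, 6.19 and 2.97 in these genes. Within the 12-month studies the SDs were 1.05 to 1.90. Rats of the 12-month studies overlapped in Cyp3a2. They did not in Sult1e1 (-1.24 to 1.41 against -6.65 to -2.45) or Stac3 (-1.65 to 0.642 against -6.15 to -2.08). The missing calls thus do not show that these studies were alike. Against the bis_2-chloroethoyl_methane rats, the same 18-month rats had 7 of the 14 genes lower and 1 higher, where 20% of all genes were lower and 19% higher in that contrast. The plot of male-biased genes by rat shows all 5 studies side by side.

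**Figure D1:**
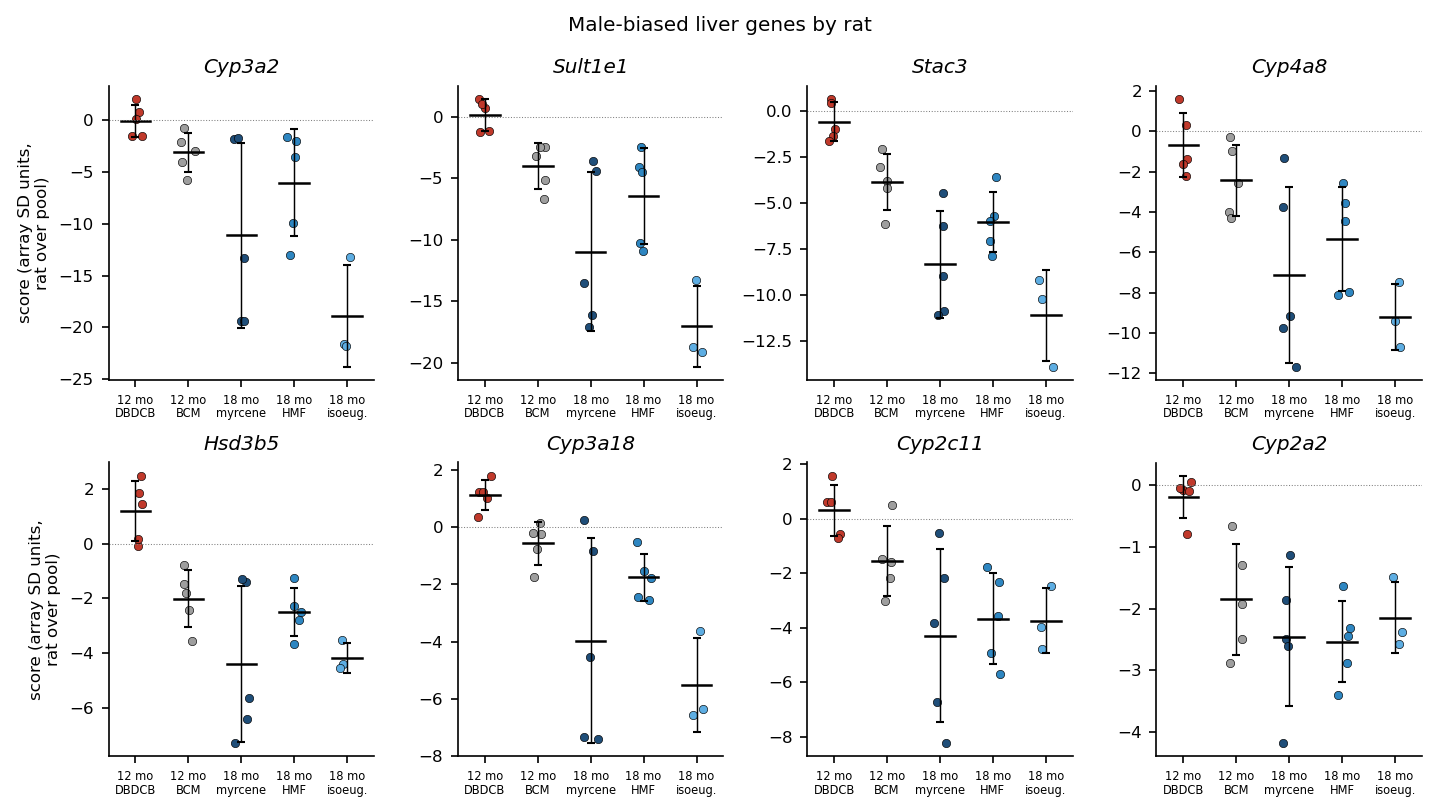
Score of 8 male-biased genes in each rat (y axis, array SD units, rat over pool) by study: 12 mo DBDCB is 1,2-dibromo-2,4-dicyanobutane (5 rats), 12 mo BCM is bis_2-chloroethoyl_methane (5), and the 18-month studies are beta-myrcene (5), 5-hydroxymethyl-2-furfural (HMF, 5) and isoeugenol (3). Points are rats, long bars are means and error bars are SDs; for Cyp3a2 and Sult1e1 every 18-month rat lies below every 12-month DBDCB rat, and of the study means the isoeugenol mean is the lowest.

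The female-biased list was mixed, and with male rats only, the sex bias of its members could not be checked. Of its 14 measured genes, 3 passed as higher and 4 as lower (21.4% and 28.6%), against 12.1% and 16.6% over all genes, with a median difference of -0.0584. In the wider test 1 of the 7 passed. Relative to the other 12-month study, 5 of the 14 were higher and 4 lower at 18 months, where 19% and 20% of all genes were. Trim24, a transcriptional coregulator, rose the most of all named genes. It scored -3.61, -3.54, -2.89, -2.35 and -2.13 in the 12-month rats and -1.9 at the lowest, 4.21 at the median and 6.83 at the highest in the 18-month rats. All 13 older rats lay above the younger range, with a difference of 6.22 (SE 1.16, adjusted p = 0.000826), and a second probe gave 2.69. The wider test gave adjusted p = 0.0511, just short of a call, and the 2 studies of 12 months did not differ in it past the threshold (adjusted p = 0.656). Hao2, a peroxisomal hydroxy acid oxidase, fell by 4.77 (SE 0.915, adjusted p = 0.00107) without overlap. Fmo1, a flavin monooxygenase, fell by 3.00 (SE 0.597, adjusted p = 0.00139).

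Genes of growth hormone and insulin-like growth factor signalling had 3 of 18 higher and 4 lower (16.7% and 22.2%), near the 12.1% and 16.6% over all genes, and the wider test kept 0 of the 7. Between the 12-month studies 3 of the 18 were higher and 7 lower in the 1,2-dibromo-2,4-dicyanobutane rats (23.2% and 21.7% over all genes). Compared with the other study, 1 of the 18 was higher and 6 lower at 18 months, where 19% and 20% of all genes were. Socs2, a feedback inhibitor of the growth hormone receptor, scored -2.84, -2.75, -2.65, -2.39 and -2.22 in the younger and -1.73 at the lowest, -1.14 at the median and 1.58 at the highest in the older rats. It rose by 1.82 (SE 0.409, adjusted p = 0.00335), with no overlap, and the wider test gave adjusted p = 0.154. Its mean in the other 12-month study was 0.456, above the older rats, so that the direction was the opposite there (-1.2, adjusted p = 0.0452). Cish, another inhibitor of the same family, fell by 1.04 (SE 0.332, adjusted p = 0.0272). Igfbp1, a secreted binding protein that insulin represses, scored 0.723, 1.03, 1.9, 3.22 and 6.63 against -2.39 at the lowest, -0.829 at the median and 0.505 at the highest and fell by 3.69 (SE 0.708, adjusted p = 0.00107). Igfbp1 averaged -1.2 in the other 12-month study, close to the older rats. The growth hormone receptor gene Ghr (difference -0.0575, adjusted p = 0.935), Igf1 (-0.00158, adjusted p = 0.998) and Stat5b (-0.287, adjusted p = 0.294) did not pass.

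Of the chaperone genes, more were called lower than higher at 18 months. Of 35 measured genes of heat shock and the unfolded protein response, 3 passed as higher and 14 as lower (8.57% and 40%, against 12.1% and 16.6% over all genes) and 18 did not pass, with a median difference of -0.751. The mean over the list was 0.488 to 0.781 in the 12-month rats and -0.659 to 0.0499 in the 18-month rats, with no overlap, and it was -0.425 in the bis_2-chloroethoyl_methane rats. The wider test kept 7 of the lower genes and 0 of the higher ones. Between the 12-month studies, 16 of the 35 were higher and 3 were lower in the 1,2-dibromo-2,4-dicyanobutane rats (23.2% and 21.7% over all genes). Against the bis_2-chloroethoyl_methane rats, 8 of the 35 were higher and 4 lower at 18 months, where 19% and 20% of all genes were. The median difference there was 0.0696, so the list as a whole was not lower than in that study.

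A few of these genes carry a match to the DNA element that heat shock factor binds in the stretch before their start. The search was for GAA, 2 bases of any kind, TTC, 2 more of any kind and GAA, on both strands, in the 250 bases before the RefSeq start (GRCr8). It matched 222 of 33469 promoters (0.663%) and 4 of the 33 listed genes that had a promoter, of which 3 are among the 14 that were lower. The matching windows of 30 bases are shown because the chaperonin pair Hspd1 and Hspe1, which are transcribed away from each other, share 1 window; capitals mark the match, or the joined matches where they overlap.
Hspa8 (chr8:50080450-50080479, plus strand): gcggaacccTTCTGGAAGGTTCtaagacag
Hspd1 (chr9:64084256-64084285, minus strand): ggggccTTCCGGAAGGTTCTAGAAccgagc
Hspe1 (chr9:64084256-64084285, plus strand): gctcggTTCTAGAACCTTCCGGAAggcccc
Hsph1 (chr12:10427323-10427352, plus strand): tgccgcagaTTCTGGAAAGTTCtcctcagt
A match is a description of letters and does not show binding.

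Hspd1, the mitochondrial chaperonin, scored 1.23, 1.24, 1.44, 1.46 and 1.46 in the 12-month rats, a narrow range. Its score in the 18-month rats was -1.9 at the lowest, -1.17 at the median and 0.107 at the highest. The groups did not overlap, and Hspd1 fell by 2.26 (SE 0.293, adjusted p = 4.94e-05, 0.0193 in the wider test). Hspe1, its partner across the shared window, scored -0.63, -0.333, -0.322, -0.215 and -0.178 in the younger rats and -0.161 at the lowest, 0.67 at the median and 1.41 at the highest in the older ones. It rose by 0.958 (SE 0.22, adjusted p = 0.00399), with a gap between the groups that was small, and the wider test gave adjusted p = 0.149. The pair thus lay on opposite sides of the 12-month group while holding the same element. In the bis_2-chloroethoyl_methane rats Hspd1 scored -2.5 on average, below the older rats, and Hspe1 scored 0.191.

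Hspa1a, the inducible heat shock protein of the cytosol, scored 1.04, 1.65, 3.29, 3.39 and 6.13 in the 12-month rats. Older rats scored -2.37 at the lowest, -1.53 at the median and -0.739 at the highest. All of them lay below the younger range, and Hspa1a fell by 4.71 (SE 0.531, adjusted p = 1.82e-05, 0.0102 in the wider test). Hspa1a averaged -0.503 in the other 12-month study. Its near-identical copy Hspa1b can bind the same probe, so the value may hold both. Hsph1, a nucleotide exchange factor of that chaperone, fell by 2.33 (SE 0.408, adjusted p = 0.000524), and Hspa8, the constitutive form, fell by 1.93 (SE 0.439, adjusted p = 0.00368), each with 1 older rat inside the younger range.

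Endoplasmic reticulum genes were among the lower ones. Herpud1, which serves the degradation of misfolded proteins there, scored 0.321, 1.18, 1.56, 1.62 and 2.06 against -2.48 at the lowest, -1.82 at the median and -0.663 at the highest and fell by 3.08 (SE 0.297, adjusted p = 4.07e-06). Dnajb9, a co-chaperone induced by unfolded protein, scored 1.77, 1.81, 2.12, 2.36 and 2.56 against -0.42 at the lowest, 0.094 at the median and 0.925 at the highest. It fell by 2.00 (SE 0.177, adjusted p = 2.35e-06). Both passed the wider test, at 0.00407 and 0.00251, and neither had overlapping groups. The reticulum chaperones Hsp90b1 (difference -2.31), Hspa5 (-2) and Calr (-2.11) were lower too, with adjusted p of 4.7e-05, 0.000315 and 0.000338. Hspa5 was higher at 18 months than in the other 12-month study (1.64, adjusted p = 0.000247), and Herpud1 (-0.64) and Dnajb9 (0.221) did not pass. Trib3, a target of the same stress response, rose by 0.824 (adjusted p = 0.0315).

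**Figure D2:**
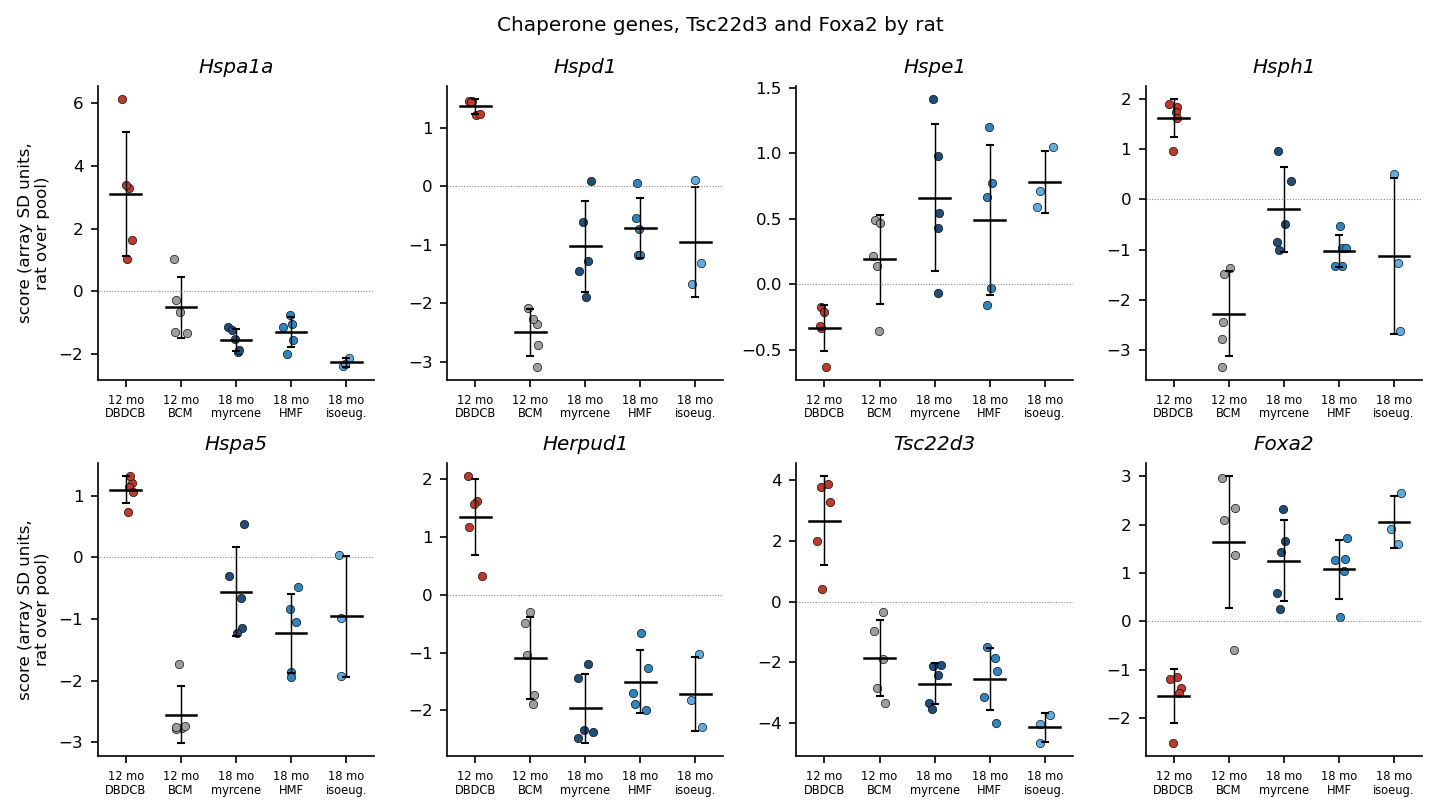
Score in each rat (y axis, array SD units, rat over pool) of 6 chaperone genes, Tsc22d3 and Foxa2 by study, with the study names, means and SDs drawn as in the plot of male-biased genes. The 12-month DBDCB rats lie above all 18-month rats in Hspa1a, Hspd1, Hspa5, Herpud1 and Tsc22d3 and below them in Hspe1 and Foxa2, and the 12-month BCM rats all lie below the DBDCB rats in the 5 genes of the first group.

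Among genes that answer to stress hormones and to acute signals, 1 of 25 passed as higher and 6 as lower (4% and 24%, against 12.1% and 16.6% over all genes). Of these, 1 passed the wider test. Compared with the other 12-month study, 2 of the 25 were higher and 9 lower at 18 months, where 19% and 20% of all genes were. Tsc22d3, a glucocorticoid-induced leucine zipper protein, scored 0.412, 1.97, 3.28, 3.78 and 3.87 in the 12-month rats. It scored -4.65 at the lowest, -3.15 at the median and -1.5 at the highest at 18 months. No rats overlapped. Tsc22d3 fell by 5.63 (SE 0.551, adjusted p = 4.85e-06) and passed the wider test at 0.00296. A second probe of Tsc22d3 fell by 0.996. The bis_2-chloroethoyl_methane rats scored -1.87, nearer to the older rats, and the 2 studies of 12 months differed (adjusted p = 9.86e-06). Per1, a clock gene that glucocorticoids also induce, fell by 3.21 (SE 0.612, adjusted p = 0.00101, 0.051 in the wider test). Zfp36, which speeds the decay of cytokine mRNAs, scored 1.7, 1.74, 1.76, 1.8 and 1.93 against -2.33 at the lowest, -0.363 at the median and 1.57 at the highest, and fell by 2.25 (SE 0.481, adjusted p = 0.00238). Zfp36 and Per1 averaged 1.71 and 0.646 in the other 12-month study, above the older rats. Of 13 measured clock genes, 0 passed as higher and 4 as lower (30.8%, against 16.6% over all genes), 1 of them in the wider test. Tef, a clock output factor, was among them, with a difference of -1.69 (SE 0.294, adjusted p = 0.000497), but it was higher at 18 months than in the other study (1.05, adjusted p = 0.00328).

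Enzymes that handle amino acids had no higher call. Of 42 measured enzymes of amino acid breakdown and the urea cycle, 0 were called higher and 24 lower (57.1%, against 16.6% over all genes), with a median difference of -0.898. The wider test kept 5. Ass1, which makes argininosuccinate in the urea cycle, scored -0.953, -0.501, 0.421, 1.12 and 2.12 in the younger and -3.87 at the lowest, -2.6 at the median and -1.09 at the highest in the older rats. The groups were apart, and Ass1 fell by 3.15 (SE 0.436, adjusted p = 8.53e-05). Ftcd, an enzyme of histidine breakdown, fell by 2.14 (SE 0.305, adjusted p = 0.000105) without overlap. Shmt2 and Got1, which act in mitochondrial one-carbon metabolism and in aspartate transamination, fell by 2.29 and by 2.19. In the other 12-month study the means were -1.85 for Ass1, -1.85 for Ftcd, -1.64 for Shmt2 and -1.64 for Got1, and none of the 4 passed against it at 18 months (adjusted p from 0.0829 to 0.85). The 12-month studies differed in 19 of the 42, with 17 higher and 2 lower in the 1,2-dibromo-2,4-dicyanobutane rats (23.2% and 21.7% over all genes). Relative to the other study, 3 of the 42 were higher and 10 lower at 18 months, where 19% and 20% of all genes were. The median there was -0.302.

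Of 23 genes of fatty acid oxidation, 0 passed as higher and 10 as lower (43.5%, against 16.6% over all genes), with a median difference of -0.845. In the wider test 3 of the 10 passed. Between the 12-month studies 11 of the 23 were higher and 0 lower in the 1,2-dibromo-2,4-dicyanobutane rats (23.2% and 21.7% over all genes). Acadm, the medium-chain acyl-CoA dehydrogenase, scored 0.62, 0.658, 0.714, 0.859 and 0.919 in the 12-month rats and -2.78 at the lowest, -1.45 at the median and -0.4 at the highest in the 18-month rats. It fell by 2.18 (SE 0.323, adjusted p = 0.000147, 0.0279 in the wider test), and no rats overlapped. In the other 12-month study Acadm averaged -1.69, below the mean of the older rats, and did not pass against them (difference 0.269, adjusted p = 0.516). Bdh1, which interconverts the ketone bodies, fell by 2.69 (SE 0.407, adjusted p = 0.000177). Its mean there was -1.04, again below the older rats without a call (adjusted p = 0.328). Cpt1a, which carries long-chain fatty acids into mitochondria, fell by 2.16 (SE 0.425, adjusted p = 0.00128, 0.0815 in the wider test). Against the bis_2-chloroethoyl_methane rats the median of the list was -0.00836, with 4 genes higher and 6 lower, where 19% and 20% of all genes were. Ppara, the receptor that drives many of these genes, fell by 0.536 (adjusted p = 0.0289).

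Of 26 genes of glucose and glycogen metabolism, 6 passed as higher and 11 as lower (23.1% and 42.3%, against 12.1% and 16.6% over all genes). Of these, 0 and 4 passed the wider test. With the other 12-month study as the base, 6 of the 26 were higher and 11 lower, where 19% and 20% of all genes were. Pck1, the first committed enzyme of gluconeogenesis, scored 0.905, 0.915, 1.13, 1.31 and 1.53 in the younger rats against -6.02 at the lowest, -2.3 at the median and -0.863 at the highest in the older. It fell by 3.90 (SE 0.641, adjusted p = 0.00032), with the groups apart, and passed the wider test (0.026). Ugp2, which makes the sugar donor of glycogen, fell by 3.02 (SE 0.409, adjusted p = 7.21e-05), and the glycogen branching enzyme gene Gbe1 and the liver glycogen synthase gene Gys2 fell by 1.65 and by 1.19. Against the other 12-month study Pck1 was lower as well (-1.5, adjusted p = 0.0394), as was Gys2 (-0.541, adjusted p = 0.0379), while Ugp2 (1.12, adjusted p = 0.0345) and Gbe1 (0.898, adjusted p = 0.00232) were higher at 18 months. The 6 higher genes had smaller differences, from 0.34 for Foxo1 to 0.957 for Ppargc1a.

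Cholesterol synthesis ran the other way, with 7 of 20 genes higher and 3 lower, against 12.1% higher over all genes, and a median difference of 0.899. Idi1, an isomerase early in the isoprenoid branch, scored -1.61, -1.56, -1.24, -0.833 and -0.462 in the 12-month rats and 0.349 at the lowest, 1.49 at the median and 4.77 at the highest in the 18-month rats. All older rats lay above the younger ones, with a difference of 2.92 (SE 0.549, adjusted p = 0.000901). Squalene epoxidase, Sqle, rose by 2.36 (SE 0.659, adjusted p = 0.0134), Cyp51 by 1.89 (SE 0.414, adjusted p = 0.00279) and the squalene synthase gene Fdft1 by 1.5 (SE 0.253, adjusted p = 0.000383). The wider test kept 1 gene, Fdft1. Insig1, which holds the pathway's activator in the endoplasmic reticulum, was lower (-1.83, adjusted p = 0.00178). Against the bis_2-chloroethoyl_methane rats, 16 of the 20 were higher at 18 months and 0 lower, where 19% and 20% of all genes were. Insig1 was among the higher ones there (1.78, adjusted p = 0.00544). Aacs, which feeds acetoacetate into lipid synthesis, scored -2.51, -1.81, -1.73, -0.961 and -0.91 against 0.576 at the lowest, 3.54 at the median and 7.21 at the highest. It rose by 4.95 (SE 0.874, adjusted p = 0.000561, 0.0641 in the wider test). With Aacs counted, genes of fatty acid and triglyceride synthesis were mixed. Of 20, 3 were higher and 4 lower (15% and 20%, against 12.1% and 16.6% over all genes).

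Bile acid genes were 0 of 17 higher and 5 lower (29.4%, against 16.6% over all genes), and the wider test kept 2 of the 5. Against the other 12-month study 1 of the 17 was higher and 5 lower, where 19% and 20% of all genes were. Baat, which conjugates bile acids to amino acids, scored 1.46, 2.18, 2.82, 2.86 and 2.9 in the younger and -2.29 at the lowest, -0.33 at the median and 0.334 at the highest in the older rats. It fell by 3.10 (SE 0.408, adjusted p = 5.45e-05, 0.0166 in the wider test) without overlap. Baat averaged -0.491 in the other 12-month study, near the older rats. Cyp7b1, an oxysterol hydroxylase, fell by 4.85 (SE 1.49, adjusted p = 0.0229), but 4 of the 13 older rats were inside the younger range. The call was lost without 12-month replicate 3 (adjusted p = 0.0533) or 4 (adjusted p = 0.0713). Cyp27a1, the sterol 27-hydroxylase, fell by 1.78 (SE 0.274, adjusted p = 0.000195). In the other 12-month study Cyp27a1 ran from -2.62 to -1.41 with a mean of -2.08, about that of the older rats at -2.03, and the difference from that study was 0.0589 (adjusted p = 0.883).

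Most drug-metabolizing genes did not pass the test. The phase I list, which contains 5 of the male-biased P450s, had 5 of 48 higher and 16 lower (10.4% and 33.3%, against 12.1% and 16.6% over all genes), of which the wider test kept 0 and 2. Among conjugating and antioxidant genes, 5 of 39 were higher and 11 lower (12.8% and 28.2%), and the wider test kept 1 and 4. Against the other 12-month study, 6 of the 48 were higher and 16 lower, and 12 of the 39 were higher and 5 lower. Over all genes 19% were higher and 20% lower in that contrast. Gstp1, a glutathione transferase that normal adult hepatocytes express little, scored -0.474, -0.096, -0.068, 0.005 and 0.069 in the 12-month rats and 1.22 at the lowest, 2.26 at the median and 4.03 at the highest in the 18-month rats. It rose by 2.44 (SE 0.317, adjusted p = 4.94e-05, 0.0166 in the wider test), with all older rats above the younger ones. The 2 studies of 12 months did not differ in it past the threshold (adjusted p = 0.0594), but their rats did not overlap. Rats of the other 12-month study scored 0.473 to 0.914 for Gstp1. Catalase, Cat, which breaks down hydrogen peroxide, scored -0.095, 0.222, 0.417, 0.598 and 0.733 against -3.28 at the lowest, -2.1 at the median and -0.846 at the highest and fell by 2.43 (SE 0.317, adjusted p = 4.95e-05, 0.0196 in the wider test). Cat averaged -1.17 in the other 12-month study and was lower at 18 months than there (adjusted p = 0.0175). Inmt, a methyltransferase, fell by 5.29 (SE 1.03, adjusted p = 0.0012), and its 2 other probes fell by 4.04 and by 3.24. Alas1, the rate-limiting enzyme of heme synthesis, fell by 3.03 (SE 0.575, adjusted p = 0.000976), and of 20 iron and heme genes 0 were higher and 8 lower (40%), 2 of them in the wider test. Alas1 was lower than in the other 12-month study too (-2.96, adjusted p = 0.00031).

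Secreted and identity genes of the hepatocyte were 2 of 35 higher and 15 lower (5.71% and 42.9%, against 12.1% and 16.6% over all genes), with a median difference of -0.648. In the wider test 1 and 4 of these passed. With the other 12-month study as the base, 4 of the 35 were higher and 11 lower, where 19% and 20% of all genes were. Asgr1, a subunit of the receptor that clears asialoglycoproteins, scored 0.855, 1.06, 1.07, 1.1 and 1.22 in the 12-month rats. In older rats it scored -2.79 at the lowest, -2.13 at the median and -0.972 at the highest. No rats overlapped, and Asgr1 fell by 2.92 (SE 0.262, adjusted p = 2.35e-06, 0.00296 in the wider test). In the other 12-month study Asgr1 averaged -2.75, and it was higher at 18 months than there (0.885, adjusted p = 0.00755). Nr1i3, the constitutive androstane receptor that governs drug-metabolizing genes, fell by 2.49 (SE 0.319, adjusted p = 4.55e-05). Its mean in the other study was -1.09, near the older rats. Foxa2, a pioneer transcription factor of the liver, scored -2.52, -1.48, -1.38, -1.19 and -1.15 in the younger and 0.088 at the lowest, 1.42 at the median and 2.65 at the highest in the older rats. It rose by 2.91 (SE 0.351, adjusted p = 2.86e-05, 0.0107 in the wider test) with no overlap, but the bis_2-chloroethoyl_methane rats averaged 1.64, near the older rats.

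Acute phase genes were 2 of 22 higher and 10 lower (9.09% and 45.5%, against 12.1% and 16.6% over all genes), and the wider test kept 0 and 4. Il6r, the interleukin 6 receptor through which hepatocytes start the acute phase, scored 0.809, 2.38, 3.05, 3.25 and 3.67 against -2.56 at the lowest, -1.66 at the median and -1.03 at the highest. It fell by 4.35 (SE 0.321, adjusted p = 1.12e-06, 0.0024 in the wider test). Il6r averaged -1.51 in the other 12-month study, near the older rats. Crp and the fibrinogen gene Fga fell by 2.06 and by 2.54 (adjusted p = 4.22e-05 and 0.000336). For complement and coagulation, 5 of 29 genes were higher and 14 lower (17.2% and 48.3%), of which the wider test kept 0 and 6, the latter led by the anticoagulant protease gene Proc (-2.53, SE 0.279, adjusted p = 1.48e-05) and by F10 (-2, SE 0.178, adjusted p = 2.35e-06). Between the 12-month studies, 10 of the 22 acute phase genes were higher and 3 lower in the 1,2-dibromo-2,4-dicyanobutane rats (23.2% and 21.7% over all genes). Of the 29 complement and coagulation genes, 12 were higher and 5 lower in those rats. Over all genes, 19% were higher and 20% lower at 18 months than in the bis_2-chloroethoyl_methane rats. The median of the acute phase list in that contrast was 0.302, with 4 genes higher and 4 lower. Complement and coagulation had 7 higher and 6 lower against those rats. Proc was higher at 18 months than in those rats (1.13, adjusted p = 0.0016).

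In each list that marks other cells of the liver, most genes did not pass the test. In bulk tissue, fewer cells of a type and less RNA per cell cannot be told apart. Of 36 T and NK cell genes, 7 were higher and 3 lower (19.4% and 8.33%, against 12.1% and 16.6% over all genes), and the wider test kept 0 of the 10. Against the other 12-month study 10 were higher and 4 lower, where 19% and 20% of all genes were. The list mean was 0.0416 to 0.349 in the younger and 0.00178 to 0.862 in the older rats, 8 of which lay above the younger range. Cd3g, a chain of the T cell receptor complex, scored -1.03, -0.461, 0.102, 0.372 and 0.764 against 0.829 at the lowest, 1.99 at the median and 2.8 at the highest and rose by 1.94 (SE 0.342, adjusted p = 0.000567, 0.0556 in the wider test) without overlap. Cd5 and Cd8a, surface proteins of T cells, rose by 2.18 (adjusted p = 0.00517) and 1 (adjusted p = 0.000439). Cd3d (0.118, adjusted p = 0.6), Cd3e (0.188, adjusted p = 0.264) and Lck (0.097, adjusted p = 0.748), which mark the same cells, did not pass. Of 32 macrophage and Kupffer cell genes, 3 were higher and 5 lower (9.4% and 15.6%), no more than over all genes. Their median difference was 0.0203, and the wider test kept 0 and 2 of the calls. List means were 0.131 to 0.569 in the younger and -0.385 to 0.708 in the older rats. Marco, a scavenger receptor of macrophages, scored 0.822, 1.4, 1.79, 2.53 and 2.59 against -2.17 at the lowest, -1.16 at the median and -0.116 at the highest and fell by 2.95 (SE 0.314, adjusted p = 1.14e-05, 0.0089 in the wider test). Marco averaged -0.954 in the other 12-month study, near the older rats. The endothelial list held 2 of 17 higher and 2 lower (11.8% each), with a median difference of -0.018. Lyve1, a hyaluronan receptor of sinusoids, was among the lower genes (-1.4, SE 0.199, adjusted p = 0.000101). Genes of the matrix and stellate cells were 5 of 30 higher and 3 lower (16.7% and 10%), with a median difference of 0.278. Ccn2, a matricellular growth factor, fell by 2.81 (adjusted p = 0.00168), against the direction of most calls of that list. Of 29 class I antigen presentation and interferon genes, 0 were higher and 5 lower (17.2%). Relative to the other 12-month study, 9 of the 29 were higher and 2 lower, where 19% and 20% of all genes were. Of 12 class II antigen presentation genes 0 were higher and 4 lower (33.3%). Of 21 neutrophil and inflammatory cytokine genes 3 were higher (14.3%) and 0 lower. None of these 7 calls was kept by the wider test. Of 32 cell cycle genes 1 was higher and 2 lower (3.1% and 6.25%), below the shares over all genes. What part the makeup of the tissue had in the other results was not tested.

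**Figure D3:**
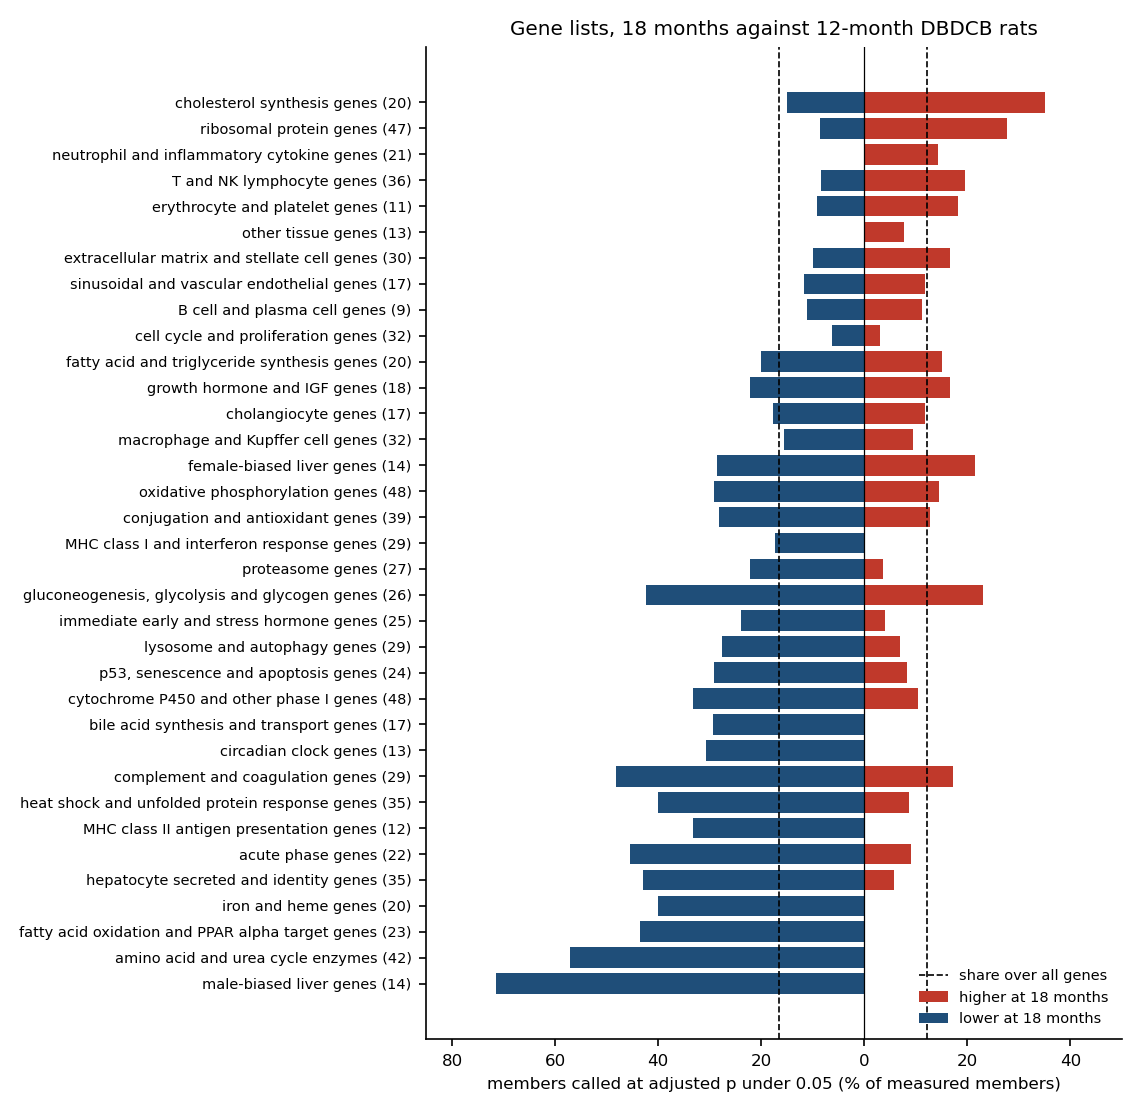
Share of the measured members of each of 35 gene lists (number in brackets) called higher (red, to the right) or lower (blue, to the left) at 18 months against the 12-month 1,2-dibromo-2,4-dicyanobutane (DBDCB) rats (x axis, percent of measured members, adjusted p under 0.05). Dashed lines mark the shares over all 9650 genes, 12.1% higher and 16.6% lower; male-biased genes have the largest share lower and cholesterol synthesis genes the largest share higher.

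Most genes of each housekeeping list did not pass the test. Ribosomal protein genes were 13 of 47 higher and 4 lower (27.7% and 8.51%, against 12.1% and 16.6% over all genes), with a median difference of 0.0104. Of these, 5 and 2 passed the wider test. Compared with the other 12-month study, 28 of the 47 were higher and 1 lower, where 19% and 20% of all genes were. Rpl39, of the large subunit, scored -2.88, -1.76, -1.51, -1.44 and -1.05 in the 12-month rats and -0.763 at the lowest, 0.374 at the median and 1.41 at the highest in the 18-month rats, rising by 2.24 (SE 0.304, adjusted p = 7.26e-05) without overlap. Rps3, of the small subunit, scored 1.44, 1.59, 1.68, 1.93 and 2.19 against -0.807 at the lowest, -0.338 at the median and 0.473 at the highest and fell by 2.06 (SE 0.182, adjusted p = 2.35e-06, 0.0024 in the wider test). Rps3 was, in contrast, higher at 18 months than in the other study (0.719, adjusted p = 0.00162). Many ribosomal protein genes have processed copies elsewhere in the genome, so what each probe measured is uncertain. Oxidative phosphorylation genes were 7 of 48 higher and 14 lower (14.6% and 29.2%). Among the lower ones were Uqcrc1 of complex III (-1.73) and Ndufa9 of complex I (-1.47), with adjusted p of 0.00015 and 4.49e-05. With the other 12-month study as the base, 17 of the 48 were higher and 5 lower, where 19% and 20% of all genes were. Ndufa9 was higher there (1.49, adjusted p = 6.57e-06). Lysosomal genes were 2 of 29 higher and 8 lower (6.9% and 27.6%), led by the glucuronidase gene Gusb (-1.96, SE 0.196, adjusted p = 6.29e-06). Proteasome genes were 1 of 27 higher and 6 lower (3.7% and 22.2%). Against the other 12-month study, 17 of the 27 proteasome genes were higher and 4 lower at 18 months. Of the 29 lysosomal genes 4 were higher and 8 lower there, where 19% and 20% of all genes were. Of 24 genes of the p53 response, senescence and apoptosis, 2 were higher and 7 lower (8.33% and 29.2%). Cdkn1a, the cell cycle inhibitor p21, was among the lower ones. It scored -0.549, 0.091, 0.652, 0.945 and 1.28 against -1.65 at the lowest, -1.22 at the median and -0.612 at the highest and fell by 1.68 (SE 0.235, adjusted p = 9.12e-05, 0.0206 in the wider test). In the other 12-month study Cdkn1a averaged -0.782, and the 18-month rats did not pass against it (adjusted p = 0.128).

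Outside the lists, the largest falls included Anxa6, a calcium-dependent membrane-binding protein. It scored 1.12, 1.17, 1.17, 1.53 and 2.06 in the 12-month rats and -8.59 at the lowest, -5.25 at the median and -0.958 at the highest in the 18-month rats, and without overlap it fell by 6.47 (SE 1.16, adjusted p = 0.000636, 0.0491 in the wider test). Zfp354a, a zinc finger gene, scored -1.18, -0.291, 2.07, 3.81 and 3.99 against -5.78 at the lowest, -4.4 at the median and -2.09 at the highest and fell by 5.77 (SE 0.794, adjusted p = 8e-05, 0.0228 in the wider test). Cdh17, the liver-intestine cadherin, fell by 5.55 (SE 1.85, adjusted p = 0.034), with 4 older rats within the younger range and no call without 12-month replicate 1, 2 or 4 (adjusted p = 0.0971, 0.0717 and 0.0776). Chrnb2, a nicotinic receptor subunit, fell by 4.67 (SE 1.15, adjusted p = 0.00612).

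The largest rises were of a different kind. Tent5a, a nucleotidyltransferase, scored -1.56, -0.65, -0.548, -0.261 and 0.635 against 1.11 at the lowest, 2.53 at the median and 6.6 at the highest and rose by 3.63 (SE 0.669, adjusted p = 0.000777) without overlap, and its other probes gave 1.61 and 2.39. Rtn4, which shapes the endoplasmic reticulum, rose by 2.87 (SE 0.591, adjusted p = 0.00182), with 10 of 13 older rats above the younger ones. In several others the 12-month rats lay far below the pool. Rgs3, a regulator of G protein signalling, scored -5.57, -5.18, -2.87, -2.79 and -1.66 in the younger rats and -2.81 at the lowest, 0.55 at the median and 3.59 at the highest in the older, with a difference of 4.53 (SE 0.979, adjusted p = 0.00256), but 1.85 on average in the bis_2-chloroethoyl_methane rats. Chpf2, Abcc10 and Ldhc, of chondroitin synthesis, drug efflux and lactate metabolism, averaged -6, -5.21 and -5.97 in the 12-month rats and differed by 3.75, 3.11 and 2.94 at 18 months, but against the other 12-month study all 3 were lower at 18 months (-4.37, -2.12 and -3.18). Slc25a30, a mitochondrial carrier gene, and Ncor1, a nuclear corepressor, differed by 3.32 and 3.17. On the recovered log2 scale, which undoes the scaling of each array, these 5 genes (Chpf2, Abcc10, Ldhc, Slc25a30 and Ncor1) did not pass, with adjusted p from 0.0759 to 0.297. A second probe of Chpf2 gave -0.276 and one of Slc25a30 gave -0.0887, and the 5 other probes of Ncor1 ranged from -0.582 to 1.04, so the probes of these genes disagree. Dusp6, a phosphatase of ERK, rose by 3.16 (SE 0.675, adjusted p = 0.00232), and its second probe gave 3.90. Sox7, a transcription factor, and Tnfsf9, a costimulatory ligand, rose by 3.18 and 3.12 (adjusted p = 0.00284 and 0.00286).

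**Figure D4:**
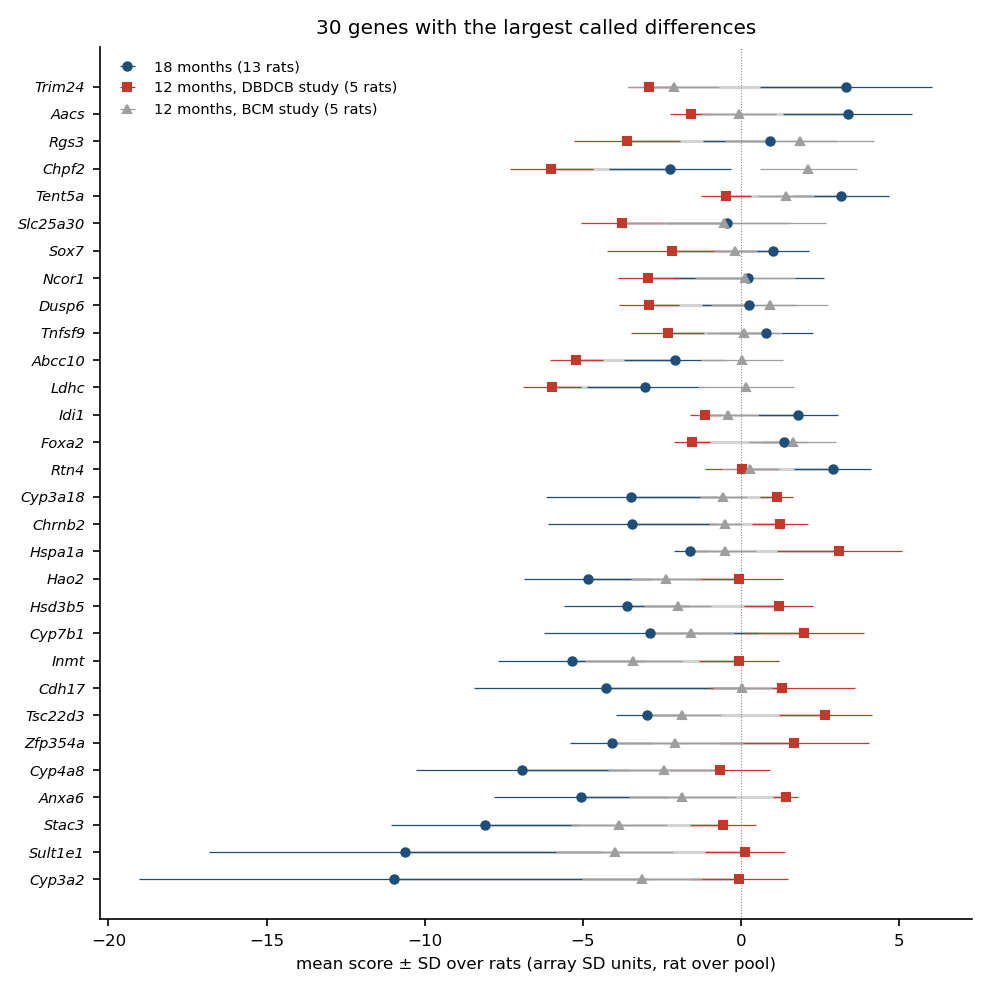
Mean score ± SD over rats (x axis, array SD units, rat over pool) of the 30 genes with the largest called differences: 13 rats of 18 months (blue circles), 5 rats of the 12-month 1,2-dibromo-2,4-dicyanobutane (DBDCB) study (red squares) and 5 of the 12-month bis_2-chloroethoyl_methane (BCM) study (grey triangles). Grey lines join the compared means; in Foxa2, Ncor1 and Slc25a30 the BCM mean lies near the 18-month mean, and in Trim24 it lies near the DBDCB mean.

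Across these 30 genes, the wider test kept 6: Foxa2, Stac3, Anxa6, Zfp354a, Tsc22d3 and Hspa1a. The 12-month studies differed in 17 of the 30. In the other 13 they did not differ past the threshold, in a test whose spread includes that of the 18-month rats. Even so, rats of the 2 studies of 12 months did not overlap in Sult1e1, Stac3, Chrnb2 and Cyp3a18. The 13 were thus picked for a large called difference and none called between the 12-month studies. Values on the same side in the next contrast follow largely from that choice and are not a second test. For those 13 the difference of the 18-month rats from the bis_2-chloroethoyl_methane rats, a contrast that shares the older rats, was as follows. It was 5.42 score units for Trim24, 3.44 for Aacs, 2.19 for Idi1 and 2.59 for Rtn4. For Cyp3a2 it was -7.71, for Sult1e1 -6.54, for Stac3 -4.2, for Cyp4a8 -4.45 and for Cdh17 -4.24. Cyp3a18 differed by -2.88, Chrnb2 by -2.89 and Hao2 by -2.43, and Cyp7b1 by -1.23, the only one of the 13 that did not pass in that contrast (adjusted p = 0.495).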

How the data were processed

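RNA of 38 rat livers was measured on 2-colour Agilent arrays, per the labels. The deposited values are standardized scores of the log ratio of rat (Cy5) over pool (Cy3), as found from the values of each array (mean -0.000449 to 0.00122, SD 0.992 to 1); how the authors normalized and scaled them is not given in the sources used here. Scale and centring before deposit are therefore unknown. Direction was read from the dyes in the labels. Without scanner files the signal of a probe above its background could not be judged, and precision is set by how many arrays there were.

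The fits on the scores used limma 3.58.1 under R 4.3.3 (lmFit, duplicateCorrelation with study as random block, eBayes, two-sided, Benjamini-Hochberg over 20277 probes). The planned test assumed log ratios; the files held scores. All scores lay within 0.00065 of an even grid, which gave log ratios with a step of 0.001, taken as log2; the base is not stated, and read as log10 the folds would differ. Of the probes, 12594 had 1 gene symbol in the platform annotation, 5 had several and 7678 had none; 12572 matched RefSeq, giving 9650 genes, of which 2139 had more than 1 probe. A gene was represented by the probe with the fewest missing values, then the largest SD over 38 arrays. In the 18 arrays 4 values were missing, each in a different probe, and the fit dropped them. Named genes were the 15 largest rises and 15 largest falls that passed with all 3 older studies on the same side, and up to 5 called members of each list, with a few more chosen after their values were seen. The 35 lists held 1195 entries, 894 of them measured. The members and lists were chosen with earlier results of these data known. Nothing says how the rats of a study were caged, and p-values measure the spread between these animals. The test was checked on simulated data that held no study effect, so that check does not cover the spread between studies. Alternatives changed the block, arrays, scaling, filter, prior, probe rule, studies and rats.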

Additional observations from a re-analysis of the deposited data

Results flagged for a closer look

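In 17 of the 30 genes with the largest called differences the 2 studies of 12 months differed from each other, by limma's test of that difference with 5 rats in each study, so the comparison with the 18-month rats depends on which 12-month study is used. In score units, 1,2-dibromo-2,4-dicyanobutane rats minus bis_2-chloroethoyl_methane rats, the difference was -8.12 for Chpf2 (adjusted p = 1.24e-06), -6.12 for Ldhc (1.56e-05), -5.46 for Rgs3 (0.000706), -5.24 for Abcc10 (1.86e-05) and -3.82 for Dusp6 (0.000916). It was -3.20 for Slc25a30 (0.0356), -3.18 for Foxa2 (2.65e-05), -3.07 for Ncor1 (0.0315), -2.41 for Tnfsf9 (0.0147), -1.999 for Sox7 (0.0323) and -1.89 for Tent5a (0.039). Among genes that were lower at 18 months, it was 4.53 for Tsc22d3 (9.86e-06), 3.77 for Zfp354a (0.00337), 3.60 for Hspa1a (4.99e-05), 3.35 for Inmt (0.0208), 3.27 for Anxa6 (0.0424) and 3.20 for Hsd3b5 (0.00873).

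In 6 of 120 sets of 5 rats of 1 study examined, a single rat lay far from the others of its study. That share is near the 1 in 20 expected of independent sets, but these sets share their rats, so chance was not tested. In the 5-hydroxymethyl-2-furfural study, rat 3 scored 5.30 for Slc25a30. Rat 2 of that study, which also stood apart in correlation, scored 5.68 for Ncor1 and -0.055 for Ldhc. In the 1,2-dibromo-2,4-dicyanobutane study, rat 3 scored both -5.78 for Sox7 and -2.52 for Foxa2. In the bis_2-chloroethoyl_methane study, 1 rat scored -1.37 for Chrnb2.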

How the results depend on the processing

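The count of 5334 called probes was within 1.5 times with the study ignored, as a fixed factor, with 28 arrays, with arrays centred or quantile normalized, on the recovered scale (3612), with trend and robust eBayes and without each older study (5271 to 6873), and it was 3886 to 6125 without 1 rat. It was 2950 over the more variable 10139 probes, where fewer probes are tested, 324 in the fit of all 38 arrays, 662 with the study correlation of 23 arrays and 0 with that of 38 arrays (2022 at an unadjusted p under 0.05). With study means as units it was 0 (5023 at an unadjusted p under 0.05), a fit of 3 means against 1. None of the 30 genes with the largest called differences changed sign in any of these fits. They were picked as large differences with all 3 older studies on the same side, so a kept sign was largely fixed beforehand. The higher share of calls was 49.7% to 52.8% across scalings. Of these 30 genes, 25 passed on the recovered scale, 10 in the fit of 38 arrays, 6 and 0 with the wider correlations, and 0 with study means. Single rats decided calls of Ncor1, Cyp3a2, Cdh17 and Cyp7b1: Ncor1 did not pass without 12-month replicate 1, 2, 3 or 5 or beta-myrcene replicate 1 (adjusted p 0.052 to 0.0856). The 2 studies of 12 months differed in 8899 probes, or 8209 with study ignored, and the 3 of 18 months in 0 with arrays centred too (1449 at an unadjusted p under 0.05).

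Medians of the 35 lists moved by less than 1 SD between rats under centring, with study ignored and without the beta-myrcene or isoeugenol study. Without the 5-hydroxymethyl-2-furfural study 2 moved, to 0.34 for growth hormone genes and -0.506 for heat shock genes. With the bis_2-chloroethoyl_methane rats in place, 22 moved, the cause of which was not tested, among them male-biased genes to -1.81, cholesterol synthesis to 1.54, ribosomal proteins to 0.739, proteasome to 0.547, conjugation to 0.211, oxidative phosphorylation to 0.247 and lysosome to 0.0204. No paired analysis was possible because the replicate numbers were given in accession order and no label ties a rat of one study to a rat of another. Signal over background is unknown, so dim probes could not be set apart.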
